A study of Mus musculus with 6 samples.

Results

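Around the genes Sash1, Sod3, Nnmt and Lmx1b, neighbouring open regions were lower together in NIH3T3 fibroblasts that carried an active ribozyme. The 4 genes were chosen by that difference in accessibility between the active and the inactive line, so the values below describe the loci. Counts of regions past a limma threshold are given beside the share over the whole table, and nothing is read from them. Every region of the deposited table that lay within 300 kb of the span of each gene was taken, whether or not it differed. That gave 82 of 52957 regions: 17 at Sash1 on chromosome 10, 14 at Sod3 on chromosome 5, 19 at Nnmt on chromosome 9 and 32 at Lmx1b on chromosome 2. NIH3T3 is an immortal mouse fibroblast line. Both lines carry a knock-in at Actg1, which encodes a cytoplasmic actin: intron 3 holds a T3H48 hammerhead ribozyme, an RNA that cuts itself. The ribozyme was active in 3 libraries and inactive in the other 3. The series asks about transcriptional adaptation, the change in transcription of genes related to one whose RNA is destabilised. Neither separate cultures nor the number of clones per line is stated in the labels. Line and ribozyme activity therefore cannot be told apart, and p-values reflect no more than the scatter among these libraries, which may be technical.

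Open chromatin is DNA that is not tightly wrapped around histones. In ATAC-seq the transposase Tn5 cuts into it, so that the number of reads over a region rises with its accessibility. Start sites of genes in use are usually open, and distal open regions are often enhancers, which act on genes some distance away. Sash1 encodes a scaffold with SAM and SH3 domains that takes part in Toll-like receptor signalling and has been studied as a candidate tumour suppressor. Sod3 is the secreted superoxide dismutase, which turns superoxide into hydrogen peroxide in the extracellular matrix. Nnmt methylates nicotinamide with S-adenosylmethionine as the donor, and so links vitamin B3 and methyl-group metabolism. Lmx1b is a LIM homeodomain transcription factor that gives the limb its dorsal identity and is needed in kidney podocytes and in serotonergic and dopaminergic neurons. These genes belong to no common pathway and lie on different chromosomes.

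Promoter sequences of Sash1 and Lmx1b are shown beside those of the nearest start sites that stayed open next to them, Ust and Zbtb43. Promoters with little signal in the active line can thus be compared with others of the same neighbourhood. Each run is the 250 bases before the RefSeq start site on the strand of the gene, 5′ to 3′, from build GRCm38.p6, and capitals mark CpG, the dinucleotide at which mouse DNA is methylated. These positions are on another build than the regions of the table, which are on mm39. Sash1 lies at chr10:8886071-8886320, Ust at chr10:8518826-8519075, Lmx1b at chr2:33641099-33641348 and Zbtb43 at chr2:33468533-33468782, all on the minus strand. RefSeq entries were at hand for 10 of the 13 named genes with a start-site region in the windows, and none was for Sod3, Nnmt or Sepsecs.
Sash1: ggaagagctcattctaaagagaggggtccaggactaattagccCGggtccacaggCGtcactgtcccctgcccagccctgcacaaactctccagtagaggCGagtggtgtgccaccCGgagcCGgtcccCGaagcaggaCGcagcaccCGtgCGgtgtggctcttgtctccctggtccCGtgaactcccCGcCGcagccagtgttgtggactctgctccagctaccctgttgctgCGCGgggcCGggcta
Ust: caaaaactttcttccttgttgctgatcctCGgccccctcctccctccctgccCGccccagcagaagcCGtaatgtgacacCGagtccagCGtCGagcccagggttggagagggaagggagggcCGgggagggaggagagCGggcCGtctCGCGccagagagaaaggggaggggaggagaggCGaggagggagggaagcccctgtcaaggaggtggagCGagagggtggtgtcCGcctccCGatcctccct
Lmx1b: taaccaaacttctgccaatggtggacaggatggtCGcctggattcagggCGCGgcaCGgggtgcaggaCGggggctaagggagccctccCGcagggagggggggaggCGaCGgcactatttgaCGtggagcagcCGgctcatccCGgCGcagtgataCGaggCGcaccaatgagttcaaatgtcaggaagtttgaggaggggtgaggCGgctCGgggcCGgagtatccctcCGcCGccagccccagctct
Zbtb43: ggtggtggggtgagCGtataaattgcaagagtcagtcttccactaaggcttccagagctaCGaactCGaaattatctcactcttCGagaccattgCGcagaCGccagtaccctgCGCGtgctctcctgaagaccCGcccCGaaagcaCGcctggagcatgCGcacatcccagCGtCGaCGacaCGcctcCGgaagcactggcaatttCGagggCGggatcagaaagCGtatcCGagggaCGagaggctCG

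The CpG counts of the Sash1 and Lmx1b promoters lay within the range of the other 8, from 4 at Mvb12b to 33 at Rbm7. Sash1 and Ust each held 15 CpG in the 250 bases, at percentile 73.6 of 32851 promoters, while Lmx1b held 19 and Zbtb43 held 23. The ratio of observed to expected CpG was 0.57 at Sash1, 0.56 at Ust, 0.74 at Lmx1b and 1.08 at Zbtb43. The promoter of Rbm7, inside the low stretch at Nnmt, had the highest ratio of the 10, 1.29 with 33 CpG. Short motifs were searched on both strands. An AP-1 site (TGANTCA, in 6.75% of all promoters) and a TEAD site (GGAATG, in 12.6%) had no match in the Sash1 or Lmx1b sequence. The same held for a TATA box (TATAAA, in 12.4%) and a GC box (GGGCGG, in 32.7%). CCAAT, present in 33.8% of promoters, matched 2 times in Lmx1b and not in Sash1. A match is a description of letters and says nothing of binding.

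The table's values are read numbers that the authors had scaled library by library and rounded, called normalised reads here. Library totals were nearly equal, at 6433944 to 6548535. The reads behind them were estimated from the spacing of the whole numbers at 3710000 to 6840000 for active libraries and 7330000 to 8960000 for inactive ones. A single read was thus worth 1.767 normalised reads in active replicate 2, the shallowest library. A value of 0 allows up to 3 reads, which is 2.84 to 5.30 normalised reads in the active libraries and covers counting error only. A region's value sums all copies in all cells, so fewer open copies, fewer cells with an open copy and fewer copies of the DNA cannot be told apart. Of 15 fibroblast markers, 9 had a region within 1 kb of their start site, with sums of 2650 to 2856 in active and 3247 to 3403 in inactive libraries. Of 8 endothelial markers 2 had one, with sums of 115 to 138 against 23 to 31, mostly from Kdr (79.0 against 6.67). No such region was analysed here for Pecam1 or Cdh5. Sums for 2 of 10 epithelial markers were 175 to 198 against 120 to 132, and for 2 of 10 leukocyte markers 278 to 286 against 314 to 352. Neural markers gave 152 to 174 against 206 to 241 from 2 of 8, and none of 8 muscle markers had a region. The part of these shifts in the results below was not tested.

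A region is called low here where the mean of log2(value + 1) was at least 1 lower in the active than in the inactive libraries, a 2-fold difference on that scale, and all 3 active values lay below all 3 inactive ones. Of the 82 regions 46 were low, against 7.28% of all regions in the table. At least 8-fold lower were 19 of the 82, against 0.389% of all regions. By limma (adjusted p under 0.05) 52 were lower, against 29.2% of the 51253 regions tested, and 11 were higher, against 30.9%. A further 14 did not pass and 5, all within the low stretches, were too weak to be tested. Since the genes were picked for this contrast, nothing is read from these shares. All 12 regions annotated to the 4 genes were low, with log2 differences from -5.28 to -1.93. The 10 regions within 1 kb of the start site of another gene were not low, with differences from -0.65 to 0.76. The share of low regions among all start-site regions is not given here, so nothing is read from this contrast either.

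**Figure D1:**
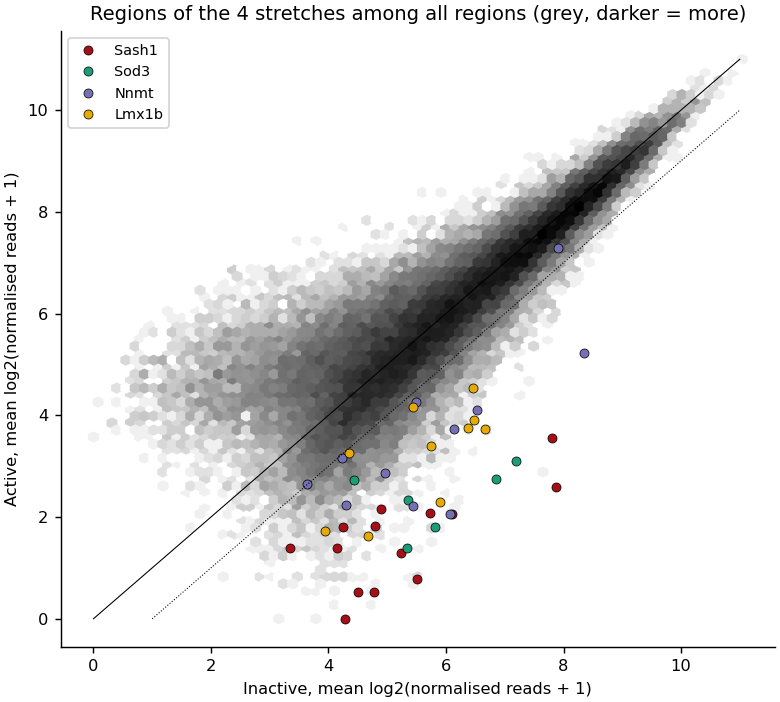
Mean log2(normalised reads + 1) in the inactive (x axis) and active (y axis) libraries for all 52957 regions in grey, with the 41 regions of the 4 low stretches in colour. The solid line marks equal levels and the dotted line a 2-fold lower level in the active line, and 2 of the 41 coloured points, both from Nnmt, do not meet the rule for low regions.

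At Sash1 little signal was left in the active line over the start site, the gene body and the upstream side. The start-site region (chromosome 10, 8761486 to 8762218, 38 bp from the start of the gene) held 2, 7 and 8 normalised reads in active replicates 1 to 3 and 244, 225 and 230 in inactive replicates 1 to 3. All active libraries were near 0 and all inactive ones were above 200, so that the groups lay far apart. The means were 5.67 ± 3.21 and 233 ± 9.85 (SD, n = 3 each), 41.1-fold lower in the active line, with a log2 difference of -5.28 ± 0.28 (SE). About 14 reads over the 3 active libraries stood behind the active level. A second Sash1 region, 4683 bp upstream (8766375 to 8766619), held 2, 4 and 4 against 60, 47 and 49. It was 15.6-fold lower, again with no overlap.

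The most accessible region per kb of the Sash1 stretch lay inside the gene, 117.22 kb downstream of the start site (8644351 to 8644842). Its values were 10, 14 and 9 in the active and 217, 241 and 213 in the inactive libraries. Per kb of width it stood at percentile 93.4 of all regions in the inactive line and at 2.10 in the active line. Next to it, the region at 8648239 held 5, 2 and 3 against 65, 69 and 70. Intronic or exonic position is not known here, since the table gives gene spans only.

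Further weak regions of the Sash1 gene body were low as well. The region at 8749421 held 0, 0 and 0 in the active and 19, 18 and 18 in the inactive libraries, at least 15-fold lower when 3 reads over the group are allowed. At 8732850 the active reads were estimated at 1, against an inactive mean of 26.3, and at 8636363 at 2, against 22.0. From these estimated reads, scaled by depth, the folds were 64.4 (95% exact Poisson interval 11.6 to 2545) and 26.9 (interval 7.45 to 222). As ratios of mean normalised reads, the measure used for the other regions, they were 39.5 and 33.0. Of the 42 active values in the stretch 13 were 0, and the highest was 14. The weakest of the stretch, at 8705056, held 2, 5 and 0 against 9, 7 and 12.

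All 14 regions from 8636363 to 8845657 were low and no region between them remained open, so the Sash1 stretch measured 209.3 kb. Its first low region was that at 8636363, with 0, 0 and 2 against 27, 19 and 20. Its last, at 8845288 to 8845657 and 83.66 kb upstream of the start site, held 0, 0 and 4 against 45, 43 and 45. The borders are only loosely placed, because no region was analysed for 241.5 kb on one side and for 527.0 kb on the other. The median log2 difference of the 14 was -3.95. As a ratio of means, with the region at 0 set to its bound, it was -4.08.

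Past the borders of the Sash1 stretch the regions were higher in the active line. The start site of Ust, a sulfotransferase of dermatan and chondroitin sulfate, held 88, 90 and 95 against 56, 51 and 53. Its neighbours further out were also higher, with 48, 60 and 57 against 22, 24 and 26 at 8374981, and 40, 51 and 51 against 31, 36 and 37 at 8307691. On the far side the nearest region (9372693 to 9373194) lay outside the window and held 141, 113 and 143 against 56, 72 and 56. In these 4 regions every active library was above every inactive one.

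**Figure D2:**
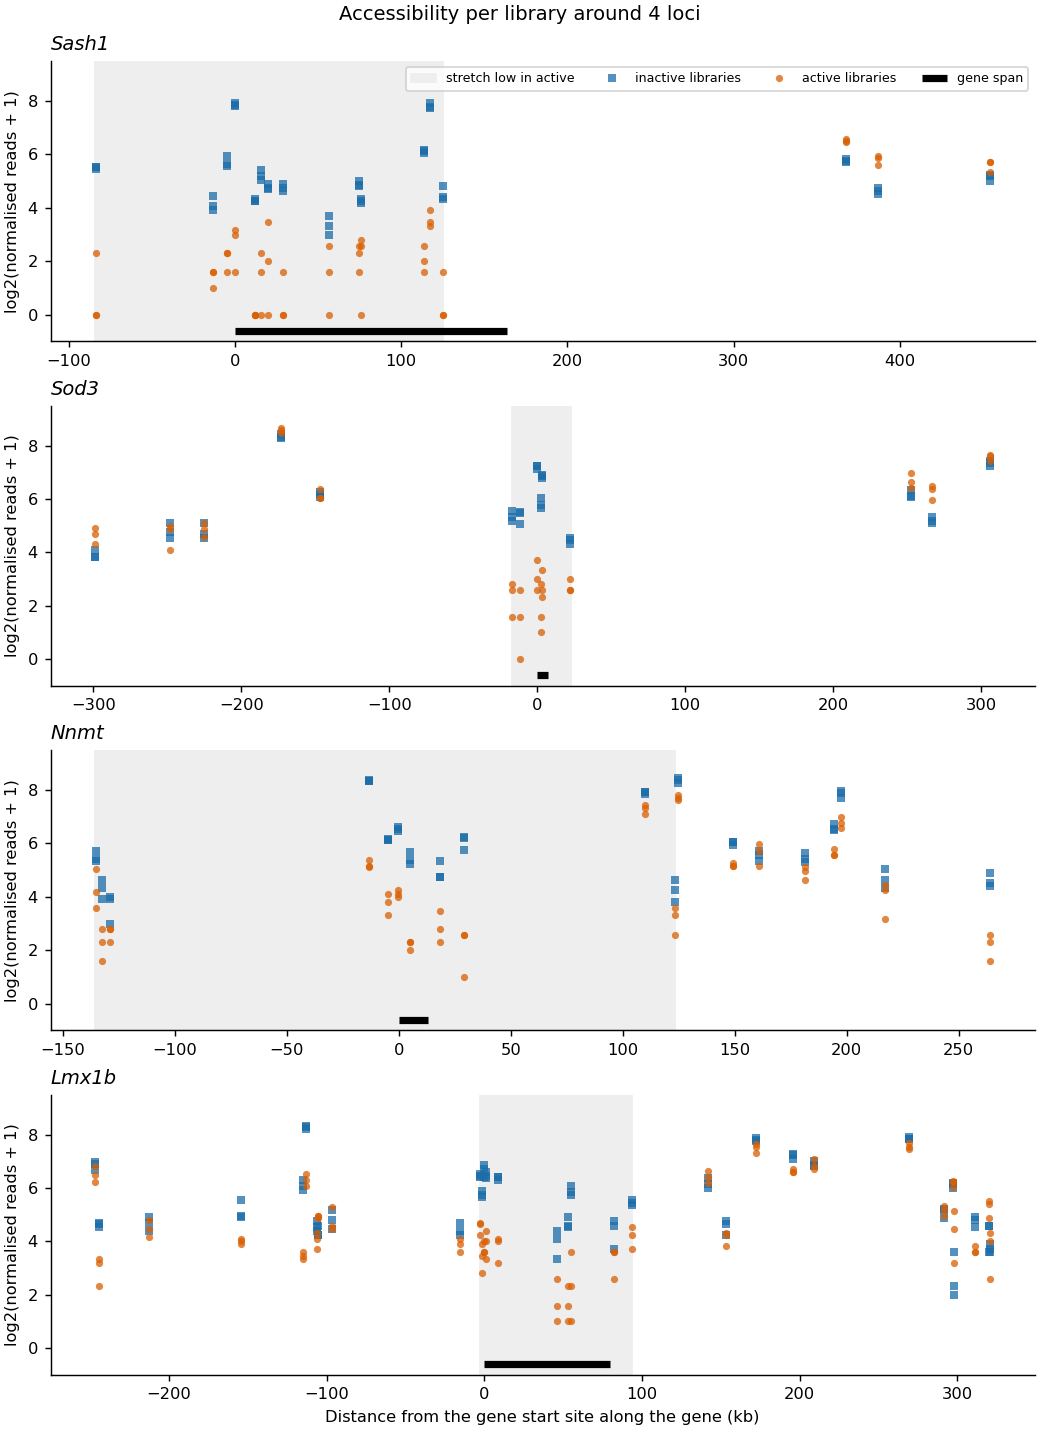
Normalised reads per region on a log2(value + 1) axis for each of the 6 libraries, against the distance from the start site of each gene in kb, measured along the gene. Orange circles are active and blue squares inactive libraries, the black bar is the gene span and the grey field the low stretch. Inside it the circles lie below the squares in every region at Sash1, Sod3, Nnmt and Lmx1b.

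At Sod3 the low regions formed a compact stretch that covered the gene and its near flanks. The start-site region (chromosome 5, 52520718 to 52521357) held 5, 12 and 7 normalised reads in the active and 148, 139 and 151 in the inactive libraries. Each active library was far below each inactive one. The means were 8.0 ± 3.61 and 146 ± 6.24, 18.2-fold lower (log2 difference -4.10 ± 0.22 SE). Regions 2340 and 3055 bp from the start site, both within the gene, were low as well: the former held 1, 2 and 6 against 49, 54 and 64 (18.6-fold) and the latter 4, 5 and 9 against 116, 110 and 118 (19.1-fold).

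Upstream of Sod3, the region at 52504237 to 52504654, 16.69 kb before the start site, was the first of the stretch, with 5, 2 and 6 against 35, 39 and 46. That at 52508958 held 2, 0 and 5 against 32, 43 and 45. The last, at 52543291 to 52543649 and 22.34 kb past the start site, was the mildest, with 7, 5 and 5 against 21, 19 and 22 (3.65-fold). All 6 regions of the 39.4 kb were low and none in between remained accessible. The log2 differences of the other 5 ran from -4.11 to -3.02.

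On both sides of the Sod3 stretch no region was low, and several were higher in the active line. The nearest region on the upstream side, 129.7 kb off at 52373854, held 81, 65 and 64 against 67, 71 and 75, with overlapping groups. The start site of Dhx15, an RNA helicase of the spliceosome, held 356, 401 and 387 against 346, 310 and 322, slightly higher in each active library. On the downstream side, 230.1 kb off, a region of the noncoding gene 8030423F21Rik held 98, 125 and 83 against 68, 79 and 67. The largest rise was at 52787668, with 88, 62 and 82 against 33, 35 and 39 (2.17-fold higher). The start site of Sepsecs, an enzyme of selenocysteine tRNA synthesis, held 196, 200 and 171 against 169, 151 and 163. None of the 8 regions outside the stretch was lower by limma and 5 were higher, against 29.2% lower and 30.9% higher over all regions tested.

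At Nnmt more signal was left than at Sash1 and Sod3, and most of its neighbours were lower too. The start-site region (chromosome 9, 48516262 to 48516856) held 15, 18 and 16 normalised reads in the active and 96, 88 and 91 in the inactive libraries. Libraries of each group were close together and the groups were well apart. The means were 16.3 ± 1.53 and 91.7 ± 4.04, 5.61-fold lower (log2 difference -2.42 ± 0.18 SE). Inside the gene, 5015 bp from the start site, the values were 4, 4 and 3 against 41, 37 and 50 (11.6-fold), and 4843 bp upstream they were 13, 16 and 9 against 71, 69 and 69 (5.50-fold).

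The strongest region of the Nnmt stretch carried no gene annotation and lay 13.34 kb upstream (48529336 to 48530250). It held 41, 34 and 35 in the active and 322, 335 and 321 in the inactive libraries, 8.89-fold lower. Beyond the far end of Nnmt, the region at 48486977 had the largest difference of the locus, with 5, 5 and 1 against 75, 72 and 53 (log2 difference -4.01 ± 0.34 SE). Between it and the gene, that at 48497731 held 6, 4 and 10 against 26, 26 and 40.

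The chain of low regions at Nnmt ran for 259.0 kb, from 48392909 to 48651880, and is the only 1 of the 4 with regions inside that were not low. Its first low region was a small one 1060 bp from the start of Rexo2, with 11, 5 and 9 against 13, 24 and 18, barely apart. Its last, at 48651499, held 11, 32 and 17 against 40, 42 and 51. Inside it, the start site of Rbm7, a subunit of the nuclear exosome targeting complex that feeds RNA to decay, was partly low, at 159, 173 and 135 against 240, 231 and 245 (1.53-fold lower). The other exception, at 48645195, was weak in both lines, with 6, 4 and 6 against 15, 7 and 14. When at least 3-fold lower values were asked for, the stretch began past Rbm7 at 48486977 and measured 162.1 kb. It measured 164.9 kb, from the same start, without active replicate 2 or inactive replicate 2.

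Outside the Nnmt stretch 7 of 8 regions were lower by limma and none higher, against 29.2% lower and 30.9% higher over all regions tested. The start site of Rexo2, a mitochondrial oligoribonuclease, held 208, 224 and 197 against 329, 308 and 353, and on the other side that of Usp28, a deubiquitinase outside the window, held 618, 551 and 587 against 803, 767 and 801. Both were well accessible in each line and lower in every active library. The region at 48318614, 197.45 kb downstream of the Nnmt start, was just past the limit for low regions, with 109, 95 and 125 against 249, 206 and 234. That at 48252359 was deeply lower again, with 5, 2 and 4 against 29, 22 and 20. Between them, the region at 48299043 held 8, 18 and 21 against 19, 24 and 32, with overlapping groups. Nearer to the stretch, the groups also overlapped at 48355220, with 51, 62 and 35 against 51, 46 and 40.

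**Figure D3:**
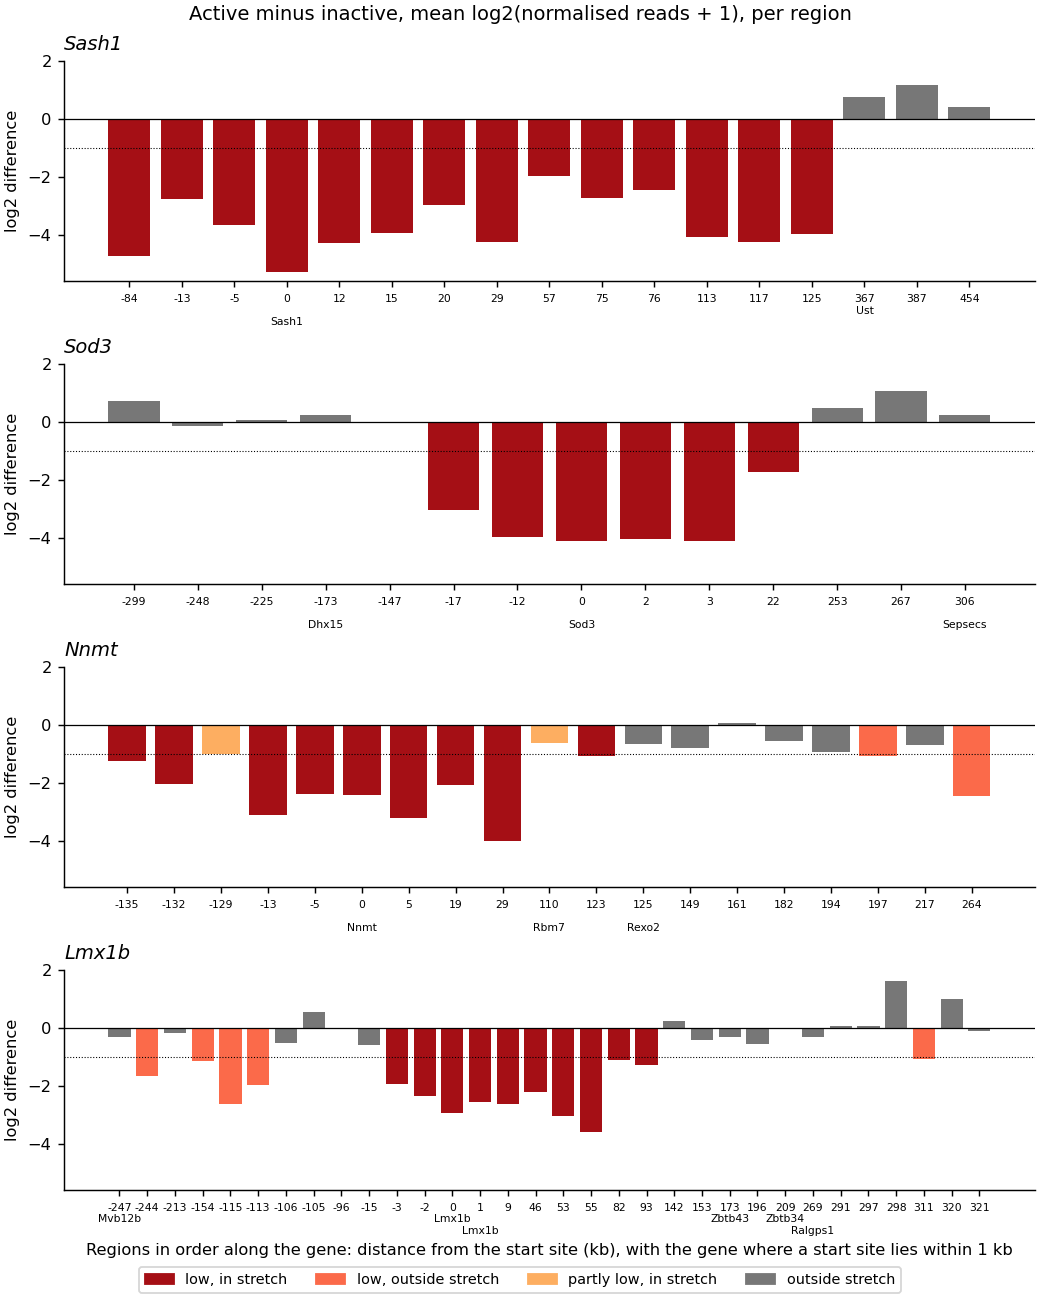
Mean log2(normalised reads + 1) of the active minus the inactive libraries for each of the 82 regions, in order along the gene. Dark red bars are low regions of the stretch, light red low regions outside it, orange the 2 regions inside the Nnmt stretch that were not low and grey all others, and the dotted line is the 2-fold limit. Labels below give the distance from the start site in kb and the gene where a start site lies within 1 kb.

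Lmx1b had a cluster of 4 annotated regions around its start site, all low. The region at chromosome 2, 33530647 to 33531280, 344 bp upstream of the start of the gene, held 11, 11 and 15 normalised reads in the active and 85, 103 and 116 in the inactive libraries. No active value came near an inactive one. The means were 12.3 ± 2.31 and 101 ± 15.6, 8.22-fold lower (log2 difference -2.94 ± 0.20 SE). On the gene side, 939 bp from the start, the values were 15, 9 and 20 against 87, 81 and 97. Further upstream, at 1731 and 2652 bp, they were 6, 14 and 10 against 52, 58 and 49, and 25, 18 and 24 against 90, 87 and 85. The last was the mildest of the 4, 3.91-fold lower, and formed the upstream end of the stretch.

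Within the Lmx1b gene body the difference was largest 55.16 kb from the start site, at 33475156 to 33475772, where the values were 1, 4 and 11 against 67, 57 and 52 (11-fold lower). Its neighbour at 33477434 held 2, 4 and 1 against 22, 29 and 23. Nearer to the start, the region at 33521505 held 8, 16 and 15 against 85, 83 and 77. Past the end of the gene the difference became small: the region at 33436979, the last on that side, held 18, 12 and 22 against 42, 46 and 40, 2.46-fold lower. The stretch had 10 low regions over 96.4 kb and no other region in between. With a 3-fold limit it lost the 2 mildest regions and measured 58.3 kb.

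The upstream border of the Lmx1b stretch was followed by 4 regions that were not low and then by a second group of low ones. The first outside, 12.4 kb from the stretch at 33545790, held 11, 16 and 14 against 20, 25 and 18. Next came 21, 23 and 38 against 21, 27 and 35 at 33626845, with overlapping groups. A strong region 113.44 kb upstream of the Lmx1b start (33643596 to 33644524) held 90, 67 and 77 in the active and 297, 315 and 307 in the inactive libraries, 3.93-fold lower. Beside it, at 33645292, the values were 10, 9 and 11 against 59, 78 and 67 (6.80-fold), and 154.18 kb upstream they were 16, 14 and 15 against 30, 29 and 46. If up to 4 other regions were allowed between low ones, these joined the stretch, which then measured 337.9 kb.

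Outside the Lmx1b stretch 9 of 22 regions were lower by limma and 3 higher, against 29.2% lower and 30.9% higher over all regions tested. Among the start sites, those of Zbtb43, Ralgps1 and Mvb12b were among the 9, with log2 differences of -0.33, -0.32 and -0.33. On the downstream side, 48.3 kb past the stretch, the region at 33388341 held 99, 71 and 84 against 63, 70 and 81. The start site of Zbtb43 held 182, 198 and 157 against 223, 216 and 236, and that of Zbtb34 held 105, 136 and 112 against 113, 129 and 116. Both encode zinc finger proteins with a BTB domain. For Ralgps1, an exchange factor of Ral GTPases, the values were 175, 203 and 182 against 228, 242 and 228. The start site of Mvb12b, a subunit of the ESCRT-I sorting complex, held 74, 111 and 89 against 118, 100 and 123, whereas a weak region 3131 bp from it was low, with 8, 4 and 9 against 22, 25 and 24.

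The 4 stretches differed in how much signal was left. Summed over all regions of the stretch, Sash1 held 45, 42 and 44 normalised reads in the active and 829, 828 and 815 in the inactive libraries, which leaves 5.3%. Sod3 held 24, 26 and 38 against 401, 404 and 446, which leaves 7.03%. At Lmx1b the sums were 98, 95 and 134 against 562, 572 and 585, and 19.0% was left. At Nnmt they were 273, 299 and 247 against 953, 955 and 971, and 28.4% was left, the highest share of the 4, with the Rbm7 start site included. Over its 9 low regions alone, Nnmt held 108, 122 and 106 against 698, 717 and 712, which leaves 15.8%, below Lmx1b. The fold of the sums was 18.9 at Sash1, 14.2 at Sod3, 5.26 at Lmx1b and 3.52 at Nnmt. Active replicate 3 was the highest active library at Sod3 and Lmx1b, and the lowest at Nnmt.

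**Figure D4:**
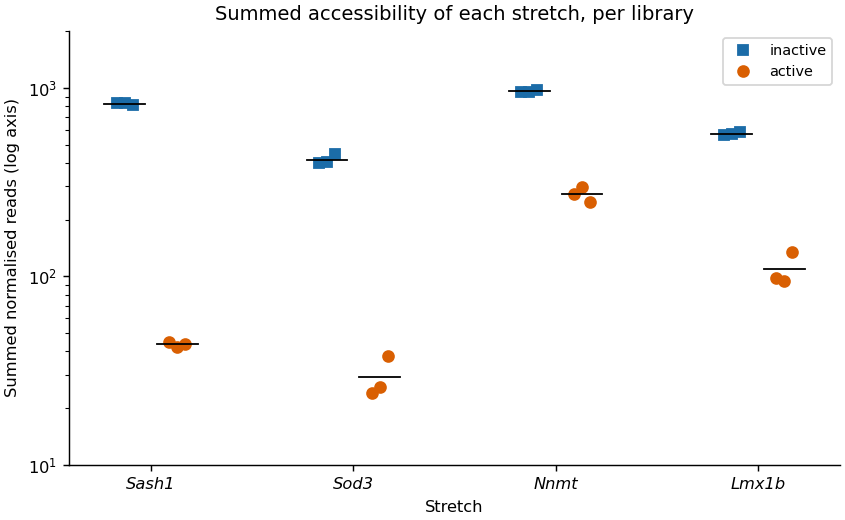
Summed normalised reads of each low stretch per library, on a log axis, with blue squares for inactive and orange circles for active libraries and a black line at the mean of each group. The active sums are lowest at Sod3 (24 to 38) and Sash1 (42 to 45) and highest at Nnmt (247 to 299).

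The surroundings within 5 Mb were shifted less than the stretches, which were defined by being low, and were not alike. In the stretches the median log2 difference of the low regions was -3.95 at Sash1, -3.99 at Sod3, -2.40 at Nnmt and -2.47 at Lmx1b. Between 300 kb and 5 Mb from the gene, the median log2 difference was -0.17 over 203 regions at Sash1, 0.19 over 110 at Sod3, -0.64 over 219 at Nnmt and -0.34 over 380 at Lmx1b. Low regions made up 7.88%, 3.64%, 25.57% and 7.89% of them. The medians of the whole chromosomes were -0.15, 0.29, -0.30 and -0.18 in the same order. Nnmt had surroundings that were lower in the active line, while the surroundings of Sod3 were slightly higher. The stretch sums were also compared with each library centred on its median log2(value + 1) over these regions. The shift removed in that way is a difference of median levels, not the median of differences given above. The log2 ratio of the sums then was -4.28 in place of -4.24 at Sash1 and -4.19 in place of -3.83 at Sod3. It was -1.52 in place of -1.81 at Nnmt and -2.10 in place of -2.39 at Lmx1b.

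**Figure D5:**
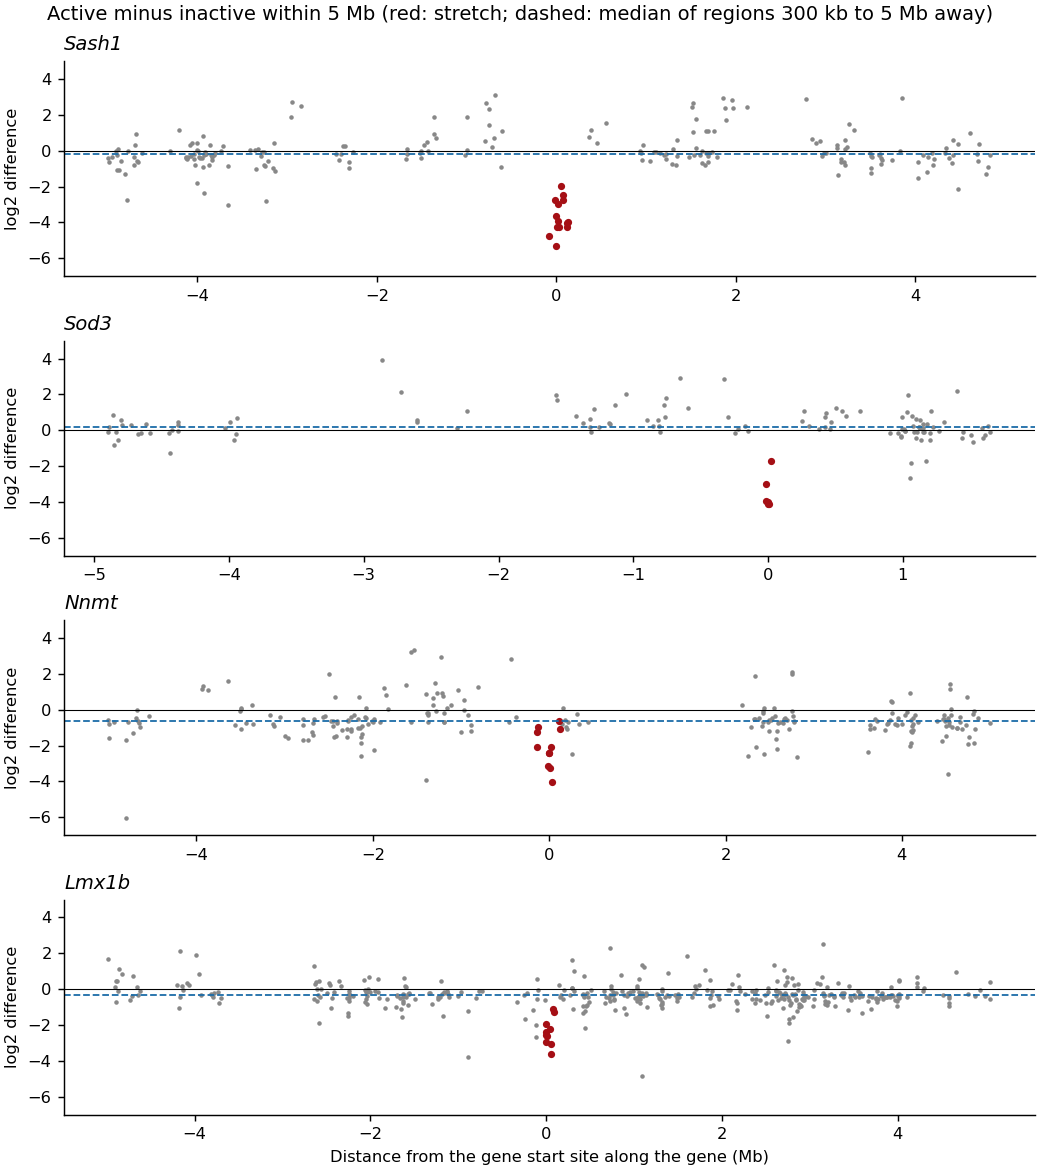
Mean log2(normalised reads + 1) of the active minus the inactive libraries for every region within 5 Mb of each gene, against the distance from its start site in Mb along the gene. Red points are the regions of the low stretch, grey points all others, and the dashed line is the median of the regions 300 kb to 5 Mb away, from -0.64 at Nnmt to 0.19 at Sod3.

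Stretches of this kind were few but not confined to the 4 loci. The same chaining over the whole table gave 2379 groups of low regions, of which 1619 were single regions, 49 held 6 or more low regions and 11 held 10 or more. The chain at Sash1, with 14, was exceeded by 3 others, the longest with 26. That at Lmx1b with 10 was exceeded by 8, that at Nnmt with 9 by 11 and that at Sod3 with 6 by 36. Among the 49 chains of at least 6, the share of signal left was smaller than at Sash1 in 2, than at Sod3 in 5, than at Lmx1b in 10 and than at Nnmt in 14.

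In the inactive line the low regions of the 4 stretches were of middle strength. Per kb of width the 39 had a median of 123 normalised reads (55.9 to 455), against 132 over the whole table. In the active line their median was 14 (0 to 78.6), against 144. Their median width was 346 bp, against 448 bp in the table. Of the 39, 34 lay more than 1 kb from a start site or had no annotated gene, and 22 had none. The matching shares over the whole table are not given here. The depth of the difference varied along each stretch. At Sod3 and Lmx1b the mildest region was at an end of the stretch or next to it (-1.71 and -1.10), at Nnmt it was the Rexo2 region at one end (-1.07), and at Sash1 it was a weak region in the gene body (-1.95). Near the 2-fold limit, 6 of the 46 low regions had a log2 difference within 0.25 past the limit of -1, such as that at 48318614 (-1.06), and 3 of the other 36 fell short of it by under 0.25, such as that at 48321927 (-0.94).

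Genes that work with or are related to the 4 were low in 1 of their 93 regions, against 7.28% of all regions. Each of the 93 carries a gene symbol, whereas the shares over all regions, here and below, include regions with no annotated gene. They are therefore not a like baseline, and nothing is read from the difference. The lists leave out the 4 genes themselves. Apart from the 1 low region, the regions named from each list are those that changed most among its called regions, not typical ones. Of 30 regions of 24 genes that remove superoxide and peroxide, 15 fell, 3 rose and 12 did not pass (limma, adjusted p under 0.05), against 29.2% lower and 30.9% higher over all regions tested. None was low, and 8 fell in limma without trend. The median log2 difference was -0.19, against -0.02 over all regions tested. Keap1, the sensor that holds back the antioxidant factor Nrf2, fell at its promoter from 213 ± 15.5 to 109 ± 24 (log2 difference -0.97, adjusted p = 2.71e-09 by limma, n = 3 per group). Nqo1, a quinone reductase, fell from 258 ± 2.08 to 162 ± 13.5 and Prdx2, a peroxiredoxin, from 144 ± 6.08 to 101 ± 6.43. Glrx, a glutaredoxin, rose from 176 ± 16.8 to 227 ± 13.7, and Srxn1, a sulfiredoxin, from 490.3 ± 26.5 to 541 ± 15.3. The Srxn1 call was lost in 5 of 11 alternatives (log2 difference 0.10 and adjusted p = 0.215 by limma without inactive replicate 2).

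Among genes of NAD and methyl-group metabolism, the field of Nnmt, 11 of 27 regions fell, 4 rose and 12 did not pass, against 29.2% lower and 30.9% higher over all regions tested. The median was -0.11, against -0.02 over all regions tested, none was low, and 7 fell in limma without trend. Ahcyl2, a relative of the enzyme that splits S-adenosylhomocysteine, rose at its promoter from 589 ± 37.0 to 1115 ± 27.3 (log2 difference 0.92, adjusted p = 6.44e-19 by limma, n = 3 per group). Nampt, which makes nicotinamide mononucleotide from the substrate it shares with Nnmt, rose from 617 ± 25.2 to 859 ± 53.7. Mtr, methionine synthase, rose from 219.7 ± 7.09 to 299.7 ± 7.51. A region 269 bp from the start of Mat2b, a subunit of methionine adenosyltransferase, fell from 77.7 ± 11.8 to 43.3 ± 9.07, and a further one 1545 bp away from 224 ± 16.9 to 168 ± 18.1. Aox1, aldehyde oxidase, fell from 504 ± 20.5 to 391 ± 27.5.

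For LIM homeodomain and LIM-only factors with their cofactors, the relatives of Lmx1b, 7 of 14 regions fell, 3 rose and 4 did not pass, against 29.2% lower and 30.9% higher over all regions tested. The median was -0.12, against -0.02 over all regions tested, and 4 fell in limma without trend. The 1 low region, picked out after its values were seen, lay 2775 bp from the start of Ssbp3 and held 13, 12 and 27 against 58, 56 and 59. Isl2, a factor of motor neurons, fell 2426 bp from its start from 217 ± 21.0 to 120.3 ± 8.33 (log2 difference -0.85, adjusted p = 1.11e-09 by limma, n = 3 per group). Lhx1 fell 2719 bp from its start from 84.3 ± 8.08 to 45.7 ± 3.06. A further region of Ssbp3, a cofactor that binds single-stranded DNA, lay 1486 bp from the start and fell from 100 ± 3.61 to 78.7 ± 14.6, a call lost without active replicate 3 (log2 difference -0.25) or inactive replicate 1 (-0.33), and in limma without trend (adjusted p = 0.0777). Lhx6, known from cortical interneurons, rose at its promoter from 123 ± 4.0 to 158 ± 1.0, and Ssbp2 from 689 ± 13.1 to 836 ± 12.2.

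Of 22 regions of Sash1 relatives and of Toll-like receptor signalling, 9 fell, 3 rose and 10 did not pass, against 29.2% lower and 30.9% higher over all regions tested. The median was -0.13, against -0.02 over all regions tested, none was low, and 5 fell in limma without trend. Nfkbia, the inhibitor of NF-kappaB, rose at its promoter from 461 ± 26.7 to 685 ± 27.2 (log2 difference 0.57, adjusted p = 3.77e-11 by limma, n = 3 per group). Traf3, an adaptor of the pathway, rose from 119 ± 5.20 to 179 ± 15.8, and Tlr2, a receptor, from 102 ± 9.81 to 126 ± 6.08. The Tlr2 call was lost without inactive replicate 1 or 3 (log2 difference 0.27 for each). Nfkb1 fell from 297 ± 21.0 to 213 ± 10.6, the kinase gene Map3k7 from 391 ± 19.3 to 285 ± 5.03 and the adaptor gene Ticam1 from 814 ± 22.5 to 603 ± 39.0. Without inactive replicate 3, 5 of the 22 regions fell.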

How the data were processed

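ATAC-seq was made from 6 libraries of NIH3T3 cells, 3 per group. Mouse build mm39, DESeq2 1.36.0, STAR 2.7.11a, Trimmomatic 0.39, featureCounts and Picard 3.1.1 are listed by the submitters' processing notes. How peaks were called and merged is not given in the sources used here. The authors deposited a score for each region and library, namely normalised reads rounded to whole numbers, as their spacing shows, so no count model was used. Factors were estimated from missing or overfilled whole numbers.

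Differences were fitted by limma 3.58.1 (R 4.3.3) on log2(value + 1) (trend and robust settings, no covariate) over 51253 regions with a mean of at least 10, with Benjamini-Hochberg adjustment over all of them. The fit and the search for stretches were tested on simulated data. The planted stretches were lowered far more than the border regions at Nnmt and Lmx1b, so borders near the 2-fold limit were not covered. Regions were ordered, and low regions with at most 2 others between them were chained, keeping the chain that overlapped the gene. A region inside that is not low counts as open with a log2 difference above -0.5 or overlapping groups, and as partly low otherwise. Named were all genes in the windows and, from each partner list, up to 3 regions per direction. These were the ones with the largest change among regions past the limma threshold with a mean of at least 50. The members and lists were chosen with earlier results of these data known. Python 3.11.15, numpy 2.4.6, pandas 2.3.3, scipy 1.17.1 and matplotlib 3.10.9 were used.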

Additional observations from a re-analysis of the deposited data

How the results depend on the processing

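At the 4 loci the number of low regions stayed within 1.5 times its value under each window, fold limit, pseudocount, normalization and left-out library tried. The Sash1 and Sod3 stretches kept both borders under all of them except the 150 kb window, where borders were not computed. The Nnmt stretch, 259.0 kb, measured 399.5 kb with a 1.5-fold limit, 162.1 kb with a 3-fold limit or with values centred on the regions 300 kb to 5 Mb away, 164.9 kb with a pseudocount of 5, and 164.9 to 259.0 kb with a library left out. The Lmx1b stretch, 96.4 kb, measured 109.0 kb with a 1.5-fold limit, 58.3 kb with a 3-fold limit or centred values, and 337.9 kb with up to 4 other regions allowed between low ones. The log2 ratio of sums went from -4.24 to -4.42 at Sash1 with quantile normalization, and to -1.52 at Nnmt and -2.10 at Lmx1b with centred values. In limma without trend the regions that fell numbered 8 for superoxide and peroxide removal, 7 for NAD and methyl-group metabolism, 4 for LIM factors and 5 for Toll-like receptor signalling, where a left-out library gave 5 to 9. The cause was not tested. Of 22 named list regions 19 kept call and direction in all 11 alternatives.

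Replicate numbers are shared between groups, and deviations of same-numbered libraries correlated at 0.001, -0.006 and -0.016. No shared replicate effect was thus visible, which cannot tell whether same-numbered libraries were prepared together. The labels state no pairing. With the replicate number as a block 15749 regions were higher and 14858 lower, against 15827 and 14957 without it. Depth limits the active values near 0, where single reads count.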
